A study of Mus musculus with 8 samples.

Results

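Respiratory complex I (NADH:ubiquinone oxidoreductase) takes electrons from NADH, passes them along flavin and iron-sulfur centres to ubiquinone, and pumps protons across the inner mitochondrial membrane. It is built from nuclear-encoded subunits, imported into the mitochondrion, and from a small set of subunits encoded by mitochondrial DNA, and assembly factors that are absent from the finished enzyme help to put its modules together. Heart muscle cells depend on it because most of their ATP comes from oxidative phosphorylation.

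The nuclear complex I genes described here are the 45 symbols that start with Nduf, go on with a, b, c, s, v, ab or af, and then have a digit, among 24062 genes present in both count tables. They comprise 7 core catalytic subunits, 9 accessory subunits of the matrix arm, 9 of the proximal membrane arm, 11 of the distal membrane arm, 7 assembly factors, and the paralogues Ndufa4 and Ndufa4l2. Ndufb1 was not analysed here. The gene now called Ndufaf8 stands in the tables under its older symbol 1810043H04Rik, outside the rule.

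The samples were the left ventricular free wall of male C57BL/6 mice aged 8 to 12 weeks, taken 1 or 3 days after surgery. Myocardial infarction (MI) was made by tying off the left anterior descending artery, and controls had sham surgery. No transgene or drug is named in the labels. Total RNA depleted of ribosomal RNA was sequenced from 2 mice in each of the 4 groups (8 libraries), with separate sham mice for each day. Letters A and B name the pair of libraries in a group, in the order of the columns. For the 1-day sham group the letters of the count and transcript tables may not match.

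Levels are in CPM, the standard per-library scaling of counts to the normalised library size. Changes are log2 fold changes of MI against sham with their standard error (SE), and adjusted p-values come from edgeR's quasi-likelihood test over the 15508 genes that passed a filter on low counts, with a threshold of 0.05. Total counts were 18831791 to 20676514 in the sham libraries, 12662237 and 7382490 in MI at 1 day, and 21055785 and 25041386 in MI at 3 days. MI library B at 1 day stood apart: 92.3% of 1506 chemosensory receptor genes had a count there, against 50.6% in sham library B of that day, 23.6% in MI library A of that day and 4.45 to 8.23% in the other 5. All 12 cardiomyocyte markers were detected in every library. Their summed level was 125598 to 200454 CPM in the sham libraries, 110126 and 119460 CPM in MI at 1 day, and 9235 and 9014 CPM in MI at 3 days. The summed level of 7 macrophage markers was 846 to 1654 CPM in the sham libraries, 599 and 765 CPM in MI at 1 day, and 6103 and 6821 CPM in MI at 3 days. None of the macrophage markers was at 0 in any library. In whole tissue, fewer cardiomyocytes and less RNA per cardiomyocyte cannot be told apart.

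Nearly the whole set was lower after MI at both days, and its members differed more widely in their change at 3 days. At 1 day, 42 of the 44 members that passed the filter were called lower and 0 higher, against 19.7% of all tested genes called lower and 19.3% called higher. Over all genes this was 3058 lower and 2993 higher, or 2025 and 4278 when scaled by library size alone, where 35 members were lower. Leaving out both 1-day B libraries leaves 1 library a group that day and assumes it varies like the other groups. Fewer members were then called lower, and their median log2 change was -0.89, against 0.01 over all tested genes. At 3 days, 41 were called lower and 0 higher, against 23.7% and 31.7% of tested genes. The member that did not pass the filter was Ndufs5, a small twin-cysteine subunit, with 0 counts in all 8 libraries of the count tables. At an unadjusted p under 0.05, 0 members were higher at either day, and DESeq2 and limma-voom also called 0 higher.

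The median log2 change over the 44 members was -1.02 at 1 day, with an interquartile range of 0.31, and -1.69 at 3 days, with an interquartile range of 0.96. Over all tested genes the medians were 0.12 and 0.16 and the interquartile ranges 1.55 and 1.92. At 1 day the members ran from -1.97 for Ndufaf3 to -0.30 for Ndufa4l2, and at 3 days from -3.26 for Ndufv1 to 0.40 for Ndufaf2. The members were thus more spread at 3 days than at 1 day, and at both days less spread than tested genes in general. Among called members, a decrease of at least 2-fold was seen in 24 at 1 day and 39 at 3 days, and of at least 4-fold in 0 and 16. The shares of all tested genes at these cut-offs are not given here.

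Both MI libraries lay below both sham libraries in 44 of 44 members at 1 day and in 42 of 44 at 3 days, where 32.6% and 35.1% of tested genes did so. Members' counts made up 1.25 to 1.45% of all counts in the sham libraries. That share was 0.890% and 0.874% in the MI libraries at 1 day, and 0.421% and 0.397% at 3 days. Summed over the members, the 3-day MI libraries were the lowest, and sham and MI did not overlap.

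**Figure D1:**
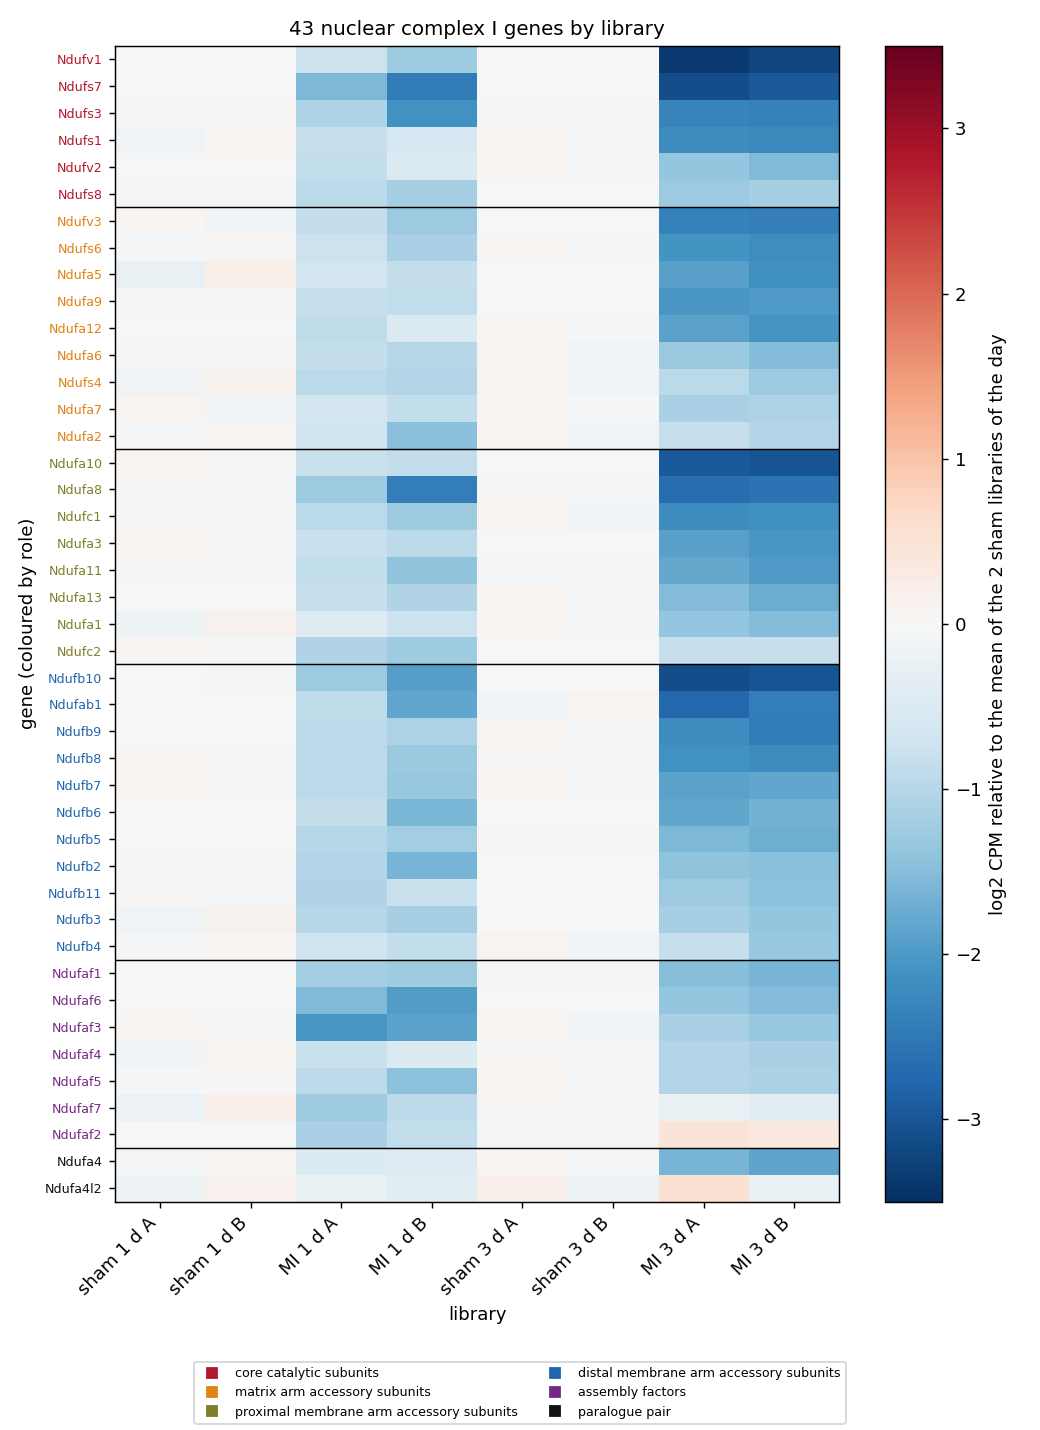
Each row is 1 of 43 tested nuclear complex I genes, each column 1 library, and the colour is the log2 CPM relative to the mean of the 2 sham libraries of the same day (blue lower, red higher). The 1-day MI columns are blue throughout, with medians over the 44 tested members of -0.89 in library A and -1.16 in library B and lowest values of -2.05 in Ndufaf3 (A) and -2.44 in Ndufs7 (B), while the 3-day MI columns run from deep blue in Ndufv1 to pale red in Ndufaf2 and, in library A, Ndufa4l2.

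Because the members moved together, their promoters were searched for shared motifs. Windows from 250 bases before to 50 after the start site (RefSeq, GRCm38.p6) were found for 39 of the 45. The other 6, Ndufa4l2, Ndufaf6 and Ndufb9 among them, had no entry. Both strands were searched for 5 short motifs of factors known to act on mitochondrial or hypoxia genes, chosen with the expression results known. The core letters of YY1, AAGATGGC, were in 7 of 39 members' windows (17.9%) and in 2.88% of 27025 promoters. The core of NRF1, GCGCATGC, was in 5 members (12.8%) and in 2.80% of promoters. The other motifs lay closer to the general share: CCGGAAG of ETS factors in 12.8% of members and 9.12% of promoters, AAGGTCA of oestrogen-related receptors in 7.69% and 4.66%, and ACGTG of hypoxia-inducible factors in 17.9% and 19.7%. Members' windows were richer in G and C bases, with a median of 59.3% against 52.7% over all promoters. The general shares were not matched for this, nor for a start codon inside the window. A match is only a match of letters, and no test was made.

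The 7 windows with AAGATGGC are shown because the motif lies close to the start site in each: it begins 23 to 39 bases after the start site, and its ATG is the annotated start codon in 7 of 7. Each line has 30 bases, 5′ to 3′ on the gene's own strand, with the motif in capitals.
Ndufs7 (chr10:80249462-80249491, + strand): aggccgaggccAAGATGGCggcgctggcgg
Ndufa9 (chr6:126849097-126849126, - strand): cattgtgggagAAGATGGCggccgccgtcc
Ndufc1 (chr3:51408915-51408944, - strand): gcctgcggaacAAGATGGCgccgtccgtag
Ndufa3 (chr7:3617384-3617413, + strand): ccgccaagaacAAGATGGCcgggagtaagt
Ndufs6 (chr13:73328433-73328462, - strand): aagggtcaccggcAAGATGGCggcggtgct
Ndufs4 (chr13:114388045-114388074, - strand): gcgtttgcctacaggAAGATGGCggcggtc
Ndufb8 (chr19:44555393-44555422, - strand): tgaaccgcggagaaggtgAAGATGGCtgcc

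The NRF1 core was found in subunits and assembly factors alike, and 1 window of each gene is shown with the motif in capitals, written GCATGCGC where it lies on the opposite strand. These windows lie at varied distances from the start site, from 113 bases before it in Ndufaf4 to 17 bases after it in Ndufaf5.
Ndufa8 (chr2:36049328-36049357, - strand): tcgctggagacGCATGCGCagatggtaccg
Ndufa6 (chr15:82354356-82354385, - strand): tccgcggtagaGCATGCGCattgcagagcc
Ndufa11 (chr17:56717691-56717720, + strand): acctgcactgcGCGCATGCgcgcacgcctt
Ndufaf4 (chr4:24897959-24897988, + strand): cccagatgtctGCGCATGCgcctgtgcgga
Ndufaf5 (chr2:140170651-140170680, + strand): tagtcccgttgGCGCATGCgcctaatagaa

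The core catalytic subunits carry the flavin and the iron-sulfur centres. All 7 fell at both days, with a median log2 change of -0.97 at 1 day and -2.36 at 3 days. At 3 days 5 of the 7 fell by at least 4-fold, a cut-off at which the share of all tested genes is not given. Ndufv1 (chromosome 19, 4007499 to 4012755, GRCm38.p6) binds the flavin that accepts electrons from NADH. Its level was 1085 and 1062 CPM in the 1-day sham libraries, 642 and 457 in MI at 1 day, 860 and 878 in the 3-day sham libraries, and 85.9 and 95 in MI at 3 days. Sham and MI did not overlap at either day. The log2 change was -0.96 ± 0.19 (SE) at 1 day (adjusted p = 0.00377) and -3.26 ± 0.20 at 3 days (adjusted p = 2.46e-06), a 9.60-fold decrease.

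Ndufs7 (chromosome 10, 80249105 to 80256794) carries the iron-sulfur cluster that hands electrons to ubiquinone. It was at 616 and 605 CPM in sham and 205 and 112 CPM in MI at 1 day, and at 411 and 413 CPM in sham and 47.6 and 53.9 CPM in MI at 3 days. The 2 MI libraries of day 1 were farther apart than the sham libraries, but both were below them. Among core subunits it fell furthest at 1 day, by 1.94 on the log2 scale (SE 0.25, adjusted p = 0.00058), and at 3 days it fell by 3.02 (SE 0.26, adjusted p = 1.27e-05).

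Subunits that work side by side did not fall by equal amounts at 3 days. Ndufv2, which sits next to Ndufv1 and holds an iron-sulfur cluster of the same module, changed by -1.44 at 3 days. Counts of Ndufv1 per count of Ndufv2 were 1.32 to 1.47 in the 4 sham libraries, 1.45 and 0.804 in MI at 1 day, and 0.349 and 0.443 in MI at 3 days. Ndufs8, an iron-sulfur subunit that borders Ndufs7, changed by -1.22 at 3 days, and counts of Ndufs7 per count of Ndufs8 were 1.92 to 2.27 in sham, 1.44 and 0.904 in MI at 1 day, and 0.539 and 0.569 in MI at 3 days. These pairs were chosen after their values were seen, and the ratios have no test.

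**Figure D2:**
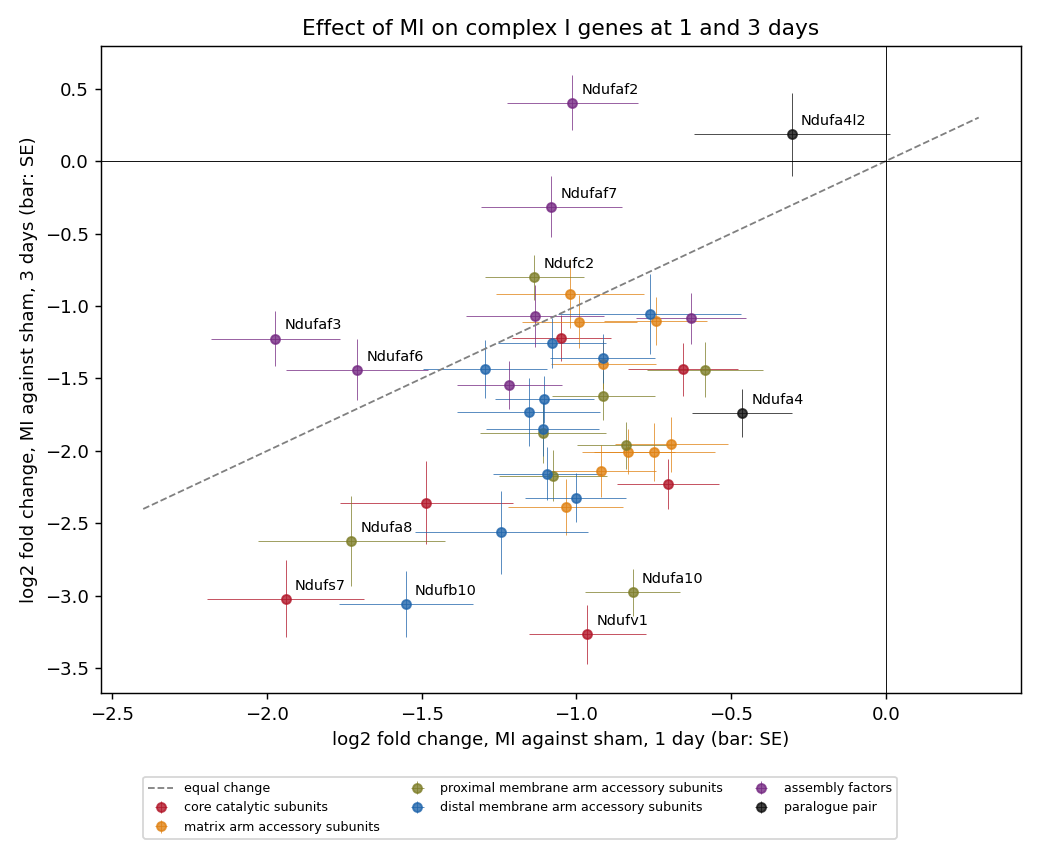
Each point is 1 of the same 43 genes, with its log2 fold change of MI against sham at 1 day on the x axis and at 3 days on the y axis, bars for the SE of the fit, colours for the role and a dashed line of equal change. Most subunits lie below the line, Ndufv1 the lowest at -3.26, while several assembly factors lie on or above it, Ndufaf2 the highest at 0.40.

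Accessory subunits of the matrix arm surround the core and include sites of assembly and regulation. All 9 fell at both days, with medians of -0.91 and -1.95. Ndufa9, which helps to hold the matrix arm to the membrane arm, was at 635 and 683 CPM in sham and 375 and 366 CPM in MI at 1 day, and at 3 days at 559 and 557 CPM in sham and 136 and 142 CPM in MI. The groups did not overlap, and the change was -0.83 ± 0.15 at 1 day (adjusted p = 0.00256) and -2.01 ± 0.15 at 3 days (adjusted p = 6.06e-06).

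Ndufv3, a small subunit bound beside Ndufv1 and Ndufv2, fell furthest of this group at both days. Its levels were 460 and 410 CPM in sham and 245 and 179 CPM in MI at 1 day, and 338 and 347 CPM in sham and 65.9 and 64.9 CPM in MI at 3 days. The change was -1.04 ± 0.18 at 1 day (adjusted p = 0.00244) and -2.39 ± 0.19 at 3 days (adjusted p = 7.67e-06). At the other end, Ndufa2, a subunit with a thioredoxin-like fold, changed by -0.91 at 3 days. Ndufs4, a subunit whose loss causes mitochondrial disease, changed by -0.99 at 1 day and -1.11 at 3 days.

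Ndufv3 also showed a shift between its transcripts. The gene makes a short form that is known as the main form in heart and skeletal muscle and a long form, with a large extra exon, that is found in other tissues. In the deposited transcript tables the short transcript (485 bases) had 3643 and 3418 reads in the 1-day sham libraries, 1373 and 715 in MI at 1 day, 3005 and 2867 in 3-day sham and 652 and 698 in MI at 3 days. The long transcript (1537 bases) had 307 and 257, then 127 and 56, then 230 and 215, then 192 and 191. At 3 days the reads of the short form thus dropped much further than those of the long form.

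As a share of the gene's transcript-table reads, the long form made up 6.92 to 7.74% in the 4 sham libraries, with exact (Clopper-Pearson) 95% intervals between 6.05 and 8.62%. It was 8.42% (interval 7.07 to 9.94%) and 7.20% (5.48 to 9.25%) in MI at 1 day, and 22.5% (19.7 to 25.4%) and 21.2% (18.6 to 24.1%) in MI at 3 days. The intervals cover counting error only and not the way that reads shared by both transcripts were assigned. The 1-day MI libraries overlap the sham libraries and the 3-day MI libraries do not. Markers of macrophages and fibroblasts were higher and cardiomyocyte markers lower in the same 3-day libraries, and their part in the shift was not tested.

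**Figure D3:**
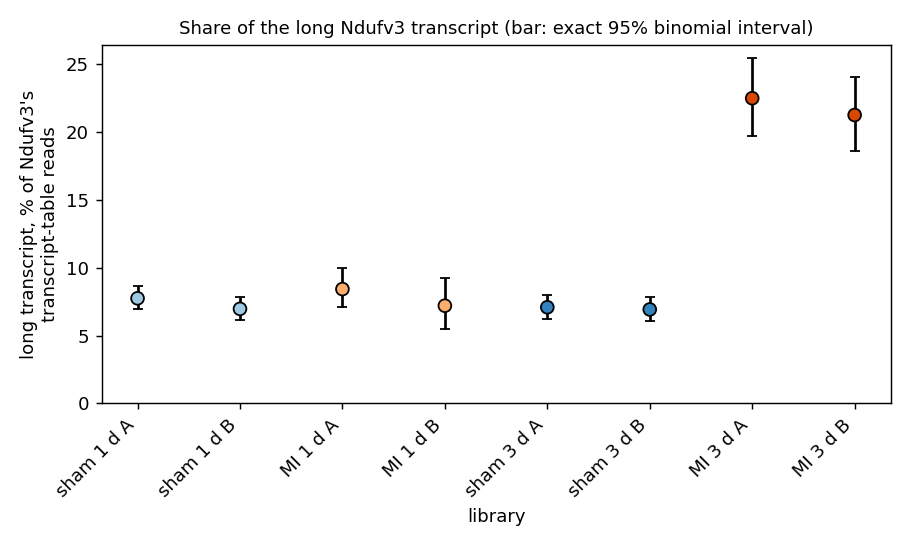
Points give, for each library on the x axis, the long Ndufv3 transcript as a percentage of the transcript-table reads of the gene, and bars the exact 95% binomial interval. The 2 MI libraries at 3 days lie at 22.5% and 21.2%, and the other 6 libraries lie between 6.92% and 8.42%.

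In all, 24 members had a second transcript with at least 200 reads over the libraries, a minimum chosen after values were seen. At 1 day its share was higher in both MI libraries than in both sham libraries in 10 of them and lower in 3, against 33.4% and 17.7% of 4639 genes with such a second transcript. At 3 days it was higher in 9 and lower in 3 (Ndufaf4, Ndufc1 and Ndufs7), against 24.5% and 21.4%, and no test was made. For Ndufb2, a small subunit of the distal membrane arm, the 4371-base transcript held 24.4% and 23.3% in 3-day sham and 32.7% and 36.1% in MI. At 1 day it held 24.3% and 24.2% in sham, and 23.1% and 32.5% in MI libraries A and B. For the assembly factor Ndufaf4 the 2358-base transcript held 42.2% and 48.2% in 3-day sham and 20.9% and 28.8% in MI, and it was lower at 1 day too, at 47.5% and 47.7% in sham and 32.7% and 19.2% in MI.

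Accessory subunits of the proximal membrane arm lie where the arm meets the ubiquinone site. All 8 that could be tested fell at both days, with medians of -0.99 and -1.92. Ndufa10 (chromosome 1, 92439486 to 92473825), which resembles nucleoside kinases, was at 797 and 715 CPM in sham and 438 and 419 CPM in MI at 1 day, and at 567 and 573 CPM in sham and 74.1 and 70.9 CPM in MI at 3 days. Its libraries agreed closely within each group and the groups did not overlap. The change was -0.82 ± 0.15 at 1 day (adjusted p = 0.003) and -2.98 ± 0.16 at 3 days (adjusted p = 1.53e-06), a 7.87-fold decrease.

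Ndufa8, a twin-cysteine protein of the intermembrane space, fell furthest in this group at 1 day. It was at 316 and 299 CPM in sham and at 127 and 57.1 CPM in MI at 1 day, a gap of 1.16 on the log2 scale between the MI libraries that was the widest of any member. The change was -1.73 ± 0.30 at 1 day (adjusted p = 0.00222), or -1.31 without the 1-day B libraries of both groups. At 3 days the levels were 206 and 197 CPM in sham and 31.9 and 33.5 CPM in MI, and the change was -2.62 ± 0.31 (adjusted p = 8.09e-05). The difference between the days, -0.89, was not called (adjusted p = 0.15), but it was without those B libraries (-1.31, adjusted p = 0.0096).

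Ndufc1 and Ndufc2 bind each other in the membrane arm and parted at 3 days. Ndufc1 changed by -2.17 and Ndufc2 by -0.80, the smallest 3-day change among the structural subunits. Counts of Ndufc1 per count of Ndufc2 were 0.572 to 0.654 in sham, 0.629 and 0.588 in MI at 1 day, and 0.238 and 0.247 in MI at 3 days. The 1-day MI ratios lay within the sham range and the 3-day ratios below it.

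Ndufs5 was measured only in the transcript tables. Levels there are in RPKM, reads scaled by the read-weighted mean length of the gene's transcripts and by a normalised library size. That size leaves out mitochondrial reads and differs from the plain total of the remaining reads. Ndufs5 was at 314 and 369 RPKM in 1-day sham and at 192 and 96.7 in MI at 1 day. At 3 days it was at 293 and 231 in sham and at 72.2 and 64.1 in MI. In an edgeR fit of the transcript-table reads its log2 change was -1.24 ± 0.29 at 1 day (adjusted p = 0.00994) and -1.94 ± 0.30 at 3 days (adjusted p = 0.000472). It thus fell like its neighbours where it was counted.

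Accessory subunits of the distal membrane arm surround the proton-pumping end. At 1 day 10 of 11 fell, with a median of -1.10, and at 3 days all 11 fell, with a median of -1.73. Ndufb10 (chromosome 17, 24722060 to 24724423), a twin-cysteine subunit, was at 665 and 641 CPM in sham and 273 and 172 CPM in MI at 1 day, and at 469 and 475 CPM in sham and 55.3 and 58.0 CPM in MI at 3 days. It fell furthest of the distal group at both days, by 1.55 (SE 0.22, adjusted p = 0.000753) and by 3.06 (SE 0.23, adjusted p = 5.3e-06). Its neighbour in name, Ndufb11, a single-span membrane subunit, changed by -0.92 and -1.36.

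Ndufb9, a protein of the LYR family, had the highest level per length of the distal group (1086 RPKM over the sham libraries, from the transcript-table reads). In the count tables it was at 851 and 836 CPM in sham and 446 and 396 CPM in MI at 1 day, and at 667 and 613 CPM in sham and 138 and 118 CPM in MI at 3 days. The groups did not overlap, and the change was -1.0 ± 0.16 at 1 day (adjusted p = 0.00159) and -2.32 ± 0.17 at 3 days (adjusted p = 4.94e-06). Ndufb4 was the structural subunit not called at 1 day, at -0.76 ± 0.30 (adjusted p = 0.0666). It has closely related copies in the genome, which makes its counts uncertain, and its count-table reads were 7.75% of its transcript-table reads. In the transcript tables it changed by -0.95 (adjusted p = 0.00203) at 1 day. Ndufab1, the mitochondrial acyl carrier protein that also serves lipoic acid and iron-sulfur cluster synthesis, changed by -1.24 at 1 day and -2.56 at 3 days.

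Over the 35 structural subunits tested, 34 fell at 1 day and 35 at 3 days, with medians of -1.0 and -1.95. Subunits with higher sham levels per length (RPKM) tended to have the larger 3-day decrease (Spearman's rho = -0.42 across 35 genes, which are not independent replicates and share the same libraries). The 3-day sham libraries enter both the level and the change, which alone can make rho negative, so no conclusion is drawn from it. The 1-day and 3-day changes of the 35 subunits were only weakly ordered alike (rho = 0.24).

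Assembly factors bind intermediates and leave before the enzyme is complete. All 7 fell at 1 day, with a median of -1.13, and 5 of 7 fell at 3 days, with a median of -1.08. Ndufaf3, which with Ndufaf4 guides the ubiquinone module, had the largest 1-day decrease of all members. It was at 47.2 and 42.8 CPM in sham and 10.9 and 12.2 CPM in MI at 1 day, and at 36.0 and 32.0 CPM in sham and 15.5 and 13.7 CPM in MI at 3 days. The change was -1.97 ± 0.21 at 1 day (adjusted p = 0.000235) and -1.22 ± 0.19 at 3 days (adjusted p = 0.000401), so the smaller decrease was the later one. The difference between the days, 0.75, did not pass the test (adjusted p = 0.0798).

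Its partner Ndufaf4 was at 103 and 117 CPM in sham and 63.9 and 79.0 CPM in MI at 1 day, and at 125 and 117 CPM in sham and 59.5 and 54.6 CPM in MI at 3 days. Sham and MI did not overlap, and the change was -0.63 ± 0.18 (adjusted p = 0.0204) and -1.08 ± 0.17 (adjusted p = 0.000548). The 1-day call is weak: in the transcript-table reads the adjusted p was 0.0696.

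Ndufaf1, a factor of the membrane-arm assembly complex that also holds Ecsit and Acad9, fell furthest at 3 days. It was at 75.1 and 75.2 CPM in sham and 32.8 and 31.9 CPM in MI at 1 day, and at 62.4 and 59.1 CPM in sham and 21.8 and 19.8 CPM in MI at 3 days. The change was -1.22 ± 0.17 (adjusted p = 0.000753) and -1.55 ± 0.17 (adjusted p = 4.27e-05). Ndufaf5, which hydroxylates Ndufs7, changed by -1.13 and -1.07, and Ndufaf6, needed early for the membrane arm, by -1.71 and -1.44.

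Ndufaf2 was the exception among all members. It is a paralogue of the matrix arm subunit Ndufa12 and holds that subunit's place on a late assembly intermediate. Ndufaf2 (chromosome 13, 108052589 to 108158652) was at 24.7 and 23.8 CPM in sham and 11 and 13.3 CPM in MI at 1 day, but at 18.4 and 19.1 CPM in sham and 25.8 and 23.9 CPM in MI at 3 days. MI lay below sham at 1 day and above it at 3 days, without overlap. The change was -1.01 ± 0.21 at 1 day (adjusted p = 0.00508) and 0.40 ± 0.19 at 3 days (adjusted p = 0.0953), so only the decrease passed the test. Counts of Ndufaf2 per count of Ndufa12 were 0.134 to 0.151 in sham, 0.121 and 0.112 in MI at 1 day, and 0.708 and 0.749 in MI at 3 days. This ratio was also chosen after its values were seen. Its size is uncertain, because count-table reads were 85.6% of transcript-table reads for Ndufa12 and 203% for Ndufaf2.

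Ndufaf7, a mitochondrial methyltransferase needed for assembly, was the other assembly factor not called at 3 days. It was at 28.3 and 36.9 CPM in sham and 13.8 and 17.3 CPM in MI at 1 day, and at 28.4 and 26.3 CPM in sham and 23.3 and 20.7 CPM in MI at 3 days. The change was -1.08 ± 0.23 at 1 day (adjusted p = 0.00545) and -0.31 ± 0.21 at 3 days (adjusted p = 0.228). It passed the 3-day test in a fit of the 4 libraries of that day alone, at -0.54 (adjusted p = 0.0203), and without MI library A of day 1, at -0.53 (adjusted p = 0.0275).

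Assembly factors whose symbols fall outside the rule gave similar counts. Of 11 measured, 11 fell at 1 day (median -1.10) and 9 at 3 days (median -0.79). Ecsit, of the membrane-arm assembly complex, changed by -1.39 at 1 day and -2.75 at 3 days, where it was at 73.4 and 69.1 CPM in sham and 10.3 and 10.8 CPM in MI. Tmem126b, of the same complex, changed by -1.19 at 1 day and was at -0.11 at 3 days (adjusted p = 0.74). Ndufaf8, which works with Ndufaf5, fell at 1 day by 1.18 (adjusted p = 0.00733) and was at -0.61 at 3 days (adjusted p = 0.0519).

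Ndufa4 was long counted as a complex I subunit and is now known as a subunit of cytochrome c oxidase. It was at 717 and 792 CPM in sham and 541 and 553 CPM in MI at 1 day, and at 781 and 702 CPM in sham and 239 and 206 CPM in MI at 3 days. The groups did not overlap, and the change was -0.46 ± 0.16 at 1 day (adjusted p = 0.0463) and -1.74 ± 0.17 at 3 days (adjusted p = 2.12e-05). The 1-day call was lost under 8 of 16 other settings. Its paralogue Ndufa4l2 is a hypoxia-induced gene reported to restrain complex I. It was at 12.5 and 15.8 CPM in sham and 11.9 and 10.8 CPM in MI at 1 day, and at 14.5 and 11.4 CPM in sham and 18.6 and 10.9 CPM in MI at 3 days.

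The 3-day groups overlapped, and Ndufa4l2 was called at neither day (-0.30 ± 0.32, adjusted p = 0.472, and 0.18 ± 0.29, adjusted p = 0.612). Its 3-day sign differed between settings. Of 11 other hypoxia targets, 6 rose and 0 fell at 1 day, against 19.3% of tested genes called higher and 19.7% called lower. Among them, Slc2a1, the glucose transporter, changed by 2.94 and Car9, a carbonic anhydrase, by 3.82. The 1-day list ran from Higd1a, at -0.65, up to Car9. At 3 days 5 rose and 4 fell, against 31.7% and 23.7%, from -2.31 for Vegfa to 1.68 for Ero1l.

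**Figure D4:**
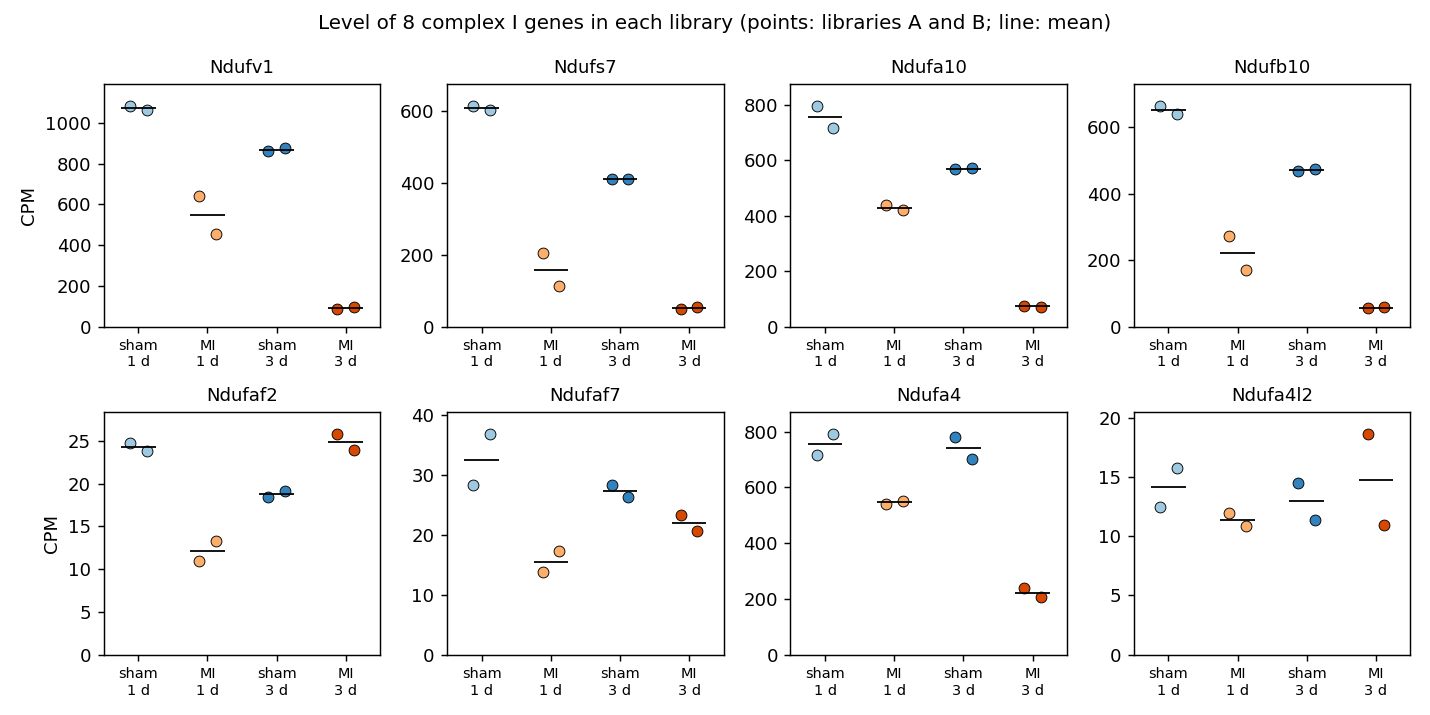
CPM of 8 genes in each library, with points for libraries A and B of a group, a line for their mean, and axes that start at 0. Ndufv1, Ndufs7, Ndufa10 and Ndufb10 step down from sham to 1-day MI to 3-day MI, Ndufaf2 returns to 25.8 and 23.9 CPM, and Ndufa4l2 overlaps between groups at 3 days.

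The second question the design allows is whether the effect of MI changed from 1 to 3 days, tested as the difference of the effects. It was more negative at 3 days in 19 of 44 members and more positive in 1, against 11.3% and 13.2% of tested genes. Of these 19, 18 were structural subunits and the other was Ndufa4. The member in the other direction was Ndufaf2, at 1.42 ± 0.28 (adjusted p = 0.00676). Among assembly factors 0 of 7 were called lower in this test, with a median difference of 0.27, against a median of -0.87 over the 35 structural subunits. Ndufaf4, at -0.46 here, was called lower in the transcript-table reads (-0.88, adjusted p = 0.031) and without MI library A of day 1 (-0.73, adjusted p = 0.0269). Of the 11 assembly factors outside the rule, 1 was called lower, Ecsit at -1.36 (adjusted p = 0.0126), and 1 higher, Timmdc1 at 0.81 (adjusted p = 0.0444). The contrast between these lists was not tested.

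The most negative differences were in Ndufv1, at -2.30 ± 0.27 (adjusted p = 0.000513), and Ndufa10, at -2.16 ± 0.22 (adjusted p = 0.00026). For Ndufs7 the difference was -1.08 ± 0.35 and close to the threshold (adjusted p = 0.0496). In the transcript-table reads 27 members had a more negative effect, where 2434 of 14573 tested genes did so. When any 1 sham library or any 1 MI library of day 3 was left out, both numbers were smaller than in the main fit. Both were larger when either MI library of day 1 was left out. Ndufaf2 lost its call without MI library A or B of day 3.

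Comparing the MI groups directly, 31 members were lower at 3 days than at 1 day and 1, Ndufaf2, was higher, at 1.05 ± 0.21 (adjusted p = 0.00286), against 22.0% and 23.4% of tested genes. The sham groups of 3 days and 1 day differed in 0 members, where 0% of tested genes were called in either direction. At an unadjusted p under 0.05, 9 members were lower in 3-day sham and 0 higher. Over all genes 1211 passed that unadjusted level, limma-voom called 0 and DESeq2 called 18 lower and 26 higher. DESeq2 and limma-voom called 0 members. The median change of the members between the sham groups was -0.32.

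The subunits were set beside markers of the cells in the tissue. The median log2 change of the 12 cardiomyocyte markers was -0.90 at 1 day, where 11 fell, and -4.08 at 3 days, where all 12 fell. The summed CPM of the structural subunits was then taken as a percentage of the summed CPM of these markers. At 1 day it was 7.76% and 8.85% in sham and 7.66% and 6.03% in MI, so both MI libraries lay below both sham libraries of that day, library A by little. At 3 days it was 10.1% and 6.47% in sham and 34.7% and 33.5% in MI, so both MI libraries lay above. Among all tested genes, 19.3% were called higher and 19.7% lower at 1 day, and 31.7% and 23.7% at 3 days. Of 7 macrophage markers, 1 rose and 2 fell at 1 day and 7 rose at 3 days. Of 8 fibroblast markers, 1 rose and 3 fell at 1 day and 6 rose at 3 days, and their summed level was 2161 to 4403 CPM in sham, 1583 and 1720 CPM in 1-day MI, and 15021 and 15104 CPM in 3-day MI. Of 8 neutrophil markers, 8 rose at 1 day and 7 at 3 days, and their summed level was 110 to 219 CPM in sham, 2105 and 1044 CPM in 1-day MI, and 954 and 512 CPM in 3-day MI. Of 8 endothelial markers, 4 rose and 1 fell at 1 day, and 3 rose and 2 fell at 3 days. Of 8 smooth muscle and pericyte markers, 0 rose and 2 fell at 1 day, and 3 rose and 4 fell at 3 days. None of these markers was at 0 in any library. The part of these cells in the members' levels was not tested.

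Of 13 listed transcription factors and coactivators known to act on respiratory genes, 8 fell and 2 rose at 1 day, where 19.7% and 19.3% of tested genes did so. At 3 days 9 fell and 2 rose, against 23.7% and 31.7%. Ppargc1a, the coactivator PGC-1alpha, had a mean of 380 CPM in 1-day sham and 96.5 CPM in MI (-1.99, adjusted p = 0.00451), and 315 CPM in 3-day sham and 15.7 CPM in MI (-4.32, adjusted p = 3.4e-05). Esrra, an oestrogen-related receptor, changed by -2.26 and -2.69. The 2 that rose were Nrf1, by 0.69 and 0.75, and Gabpb1, a partner of the ETS factor Gabpa, by 1.38 and 0.70. Yy1 was called at neither day, at -0.08 (adjusted p = 0.811) and 0.14 (adjusted p = 0.618).

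The 7 subunits encoded by mitochondrial DNA, mt-Nd1 to mt-Nd6 and mt-Nd4l, form the proton-pumping core of the membrane arm and were read in the transcript tables. They took 2.23% and 2.38% of all transcript-table reads in 1-day sham, 6.86% and 10.2% in MI at 1 day, 3.15% and 3.01% in 3-day sham, and 1.40% and 0.794% in MI at 3 days. All 7 were above both sham libraries in both MI libraries at 1 day and below them at 3 days, on the same RPKM scale. The nuclear members took 1.28% and 1.31% in 1-day sham, 0.689% and 0.444% in MI at 1 day, 1.22% and 1.15% in 3-day sham, and 0.399% and 0.397% in MI at 3 days. Nuclear and mitochondrial complex I reads thus moved in opposite directions at 1 day and in the same direction at 3 days.

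Per read of a nuclear member there were 1.74 and 1.82 mt-Nd reads in 1-day sham, 9.96 and 22.9 in MI at 1 day, 2.59 and 2.61 in 3-day sham, and 3.5 and 2.0 in MI at 3 days. The 1-day MI ratios were the highest of all, and the 3-day MI ratios lay on either side of sham. Reads of all mitochondrial genes were 13.9 to 16.6% of transcript-table reads in the sham libraries, 28.7% and 43.3% in MI at 1 day, and 6.51% and 4.19% in MI at 3 days. The mt-Nd reads are part of this total and moved in the same direction, but not by the same proportion at 1 day. These shares have no test.

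**Figure D5:**
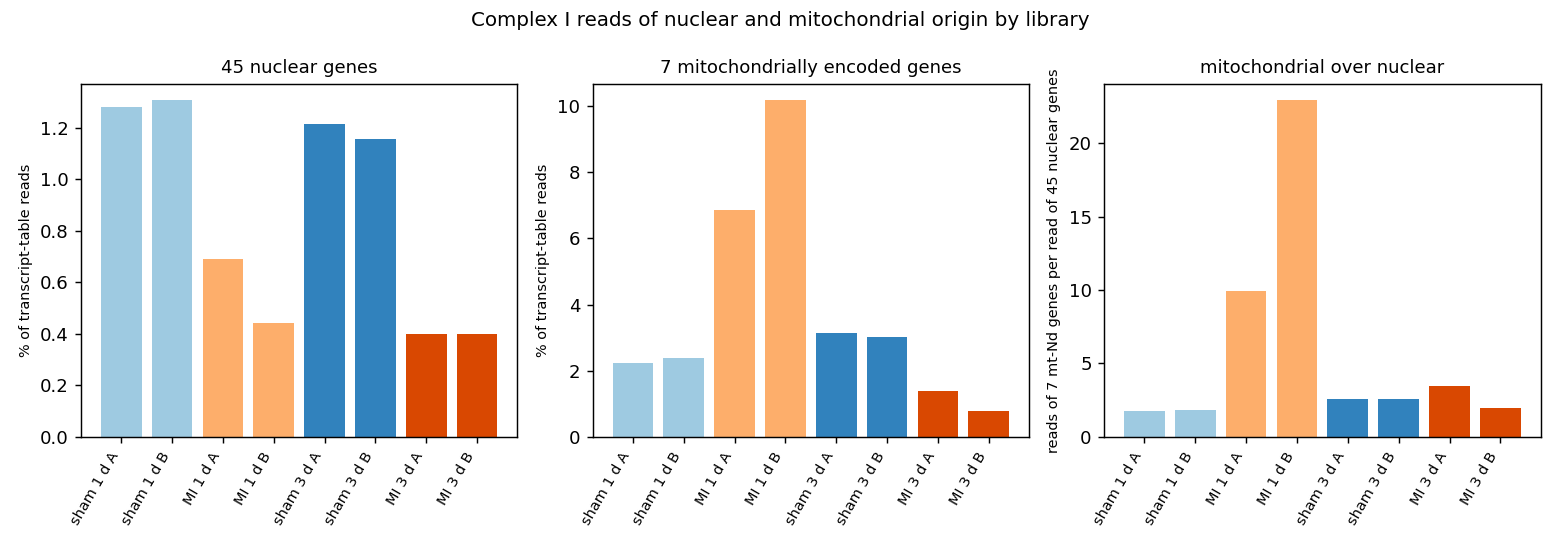
Bars give, for each library, the percentage of transcript-table reads from the 45 nuclear genes (left) and from the 7 mitochondrially encoded genes (middle), and the reads of the latter per read of the former (right), on axes that start at 0. The 1-day MI libraries are low on the left, at 0.689% and 0.444%, and high in the middle, at 6.86% and 10.2%.

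Levels of different members were compared per length only, on the RPKM scale computed from the transcript-table reads, averaged over the 4 sham libraries. Ndufa4 was highest at 1215, followed by Ndufb9 at 1086, and Ndufb8 was at 789. In 1-day sham Ndufa4 was at 1207 ± 75.0 and Ndufb9 at 1208 ± 19.7 (SD, n = 2), which did not differ beyond their spread. In 3-day sham they were at 1223 ± 42.6 and 963 ± 14.6, farther apart than their spread. The 8 lowest were the 7 assembly factors and Ndufa4l2, from 48.9 for Ndufaf1 to 11.8 for Ndufaf7. The order of the highest genes depended on the length used: with the longest listed transcript as length Ndufb9 stayed at 1086, while Ndufa4 was at 599 and Ndufb8 at 298.

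In the authors' deposited table for 1 day, 39 of 44 members were lower in MI and 0 higher at an adjusted p under 0.05, and Ndufa1, Ndufa4, Ndufa4l2, Ndufaf4 and Ndufb4 were not called. In the authors' deposited table for 3 days, 41 were lower and 0 higher, and Ndufa4l2, Ndufaf2 and Ndufaf7 were not called. The 3 members not called at 3 days were the same in this table and in the fit described here. The shares of all genes called in the authors' results are not given here.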

How the data were processed

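The authors deposited, for each day, a table of raw read counts per gene symbol and a DESeq2 table of p-values and log2 fold changes, per the file headers. The 1-day DESeq2 table gives MI over sham and the 3-day table sham over MI, as checked against the counts. They also deposited transcript tables, of which the total transcript read counts and lengths were used, and 40 other columns of per-library values were not used here. Per the submitters' processing notes, the tools were TopHat2 2.0.14, Bowtie2 2.2.5, HTSeq, SAMtools 0.1.2, DESeq2 and FastQC, with build mm10. The tool settings, with strand, were not given in the sources used here. Reads of a gene and of one that overlaps it may therefore be mixed.

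Counts were joined by symbol, filtered with filterByExpr, normalised by TMM and fitted by group over all 8 libraries in edgeR 4.0.16 (R 4.3.3; robust quasi-likelihood F test, 2-sided; common dispersion 0.0602), with Benjamini-Hochberg adjustment over 15508 genes. The script was tested on simulated data. With 2 libraries a group, p-values rest on the spread between these samples, estimated over all 4 groups and shrunk towards that of other genes. The median prior degrees of freedom were 5.51 and the residual 4. The p-values measure no spread beyond these samples. Alternatives used DESeq2 1.42.0 size factors or test, limma-voom (limma 3.58.1), library size alone, no filter, the libraries of 1 day, transcript-table reads, and left-out libraries. Members given in full were Ndufa4 and Ndufa4l2, the largest called change at each day and the highest CPM in each role, those not called at 3 days, and the 2 smallest p of the difference in each direction. Members, lists, motifs and ratios were chosen with earlier results of these data known. Promoters and positions are from RefSeq, GRCm38.p6. A genome of another build was not used. Results of 1 member are not reported here one by one or drawn, though it enters the fits and counts.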

Additional observations from a re-analysis of the deposited data

Results flagged for a closer look

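The effect of MI differed between 3 days and 1 day, by edgeR's test of the difference with an adjusted p under 0.05, in 20 members, of which 19 are given here. On the log2 scale, the 3-day effect minus the 1-day effect was -2.30 in Ndufv1, -2.16 in Ndufa10, -1.52 in Ndufs1, -1.51 in Ndufb10 and -1.35 in Ndufv3. It was -1.32 in Ndufb9, -1.32 in Ndufab1, -1.27 in Ndufa4, -1.26 in Ndufa12, -1.26 in Ndufa5 and -1.22 in Ndufs6. It was -1.17 in Ndufa9, -1.12 in Ndufa3, -1.09 in Ndufc1, -1.08 in Ndufs7, -1.06 in Ndufb8, -0.86 in Ndufa1 and -0.78 in Ndufv2. In Ndufaf2 it was 1.42, the positive value of the set. In the same libraries the cardiomyocyte markers changed by a median of -0.90 at 1 day and -4.08 at 3 days, and the part of this in the members' differences was not tested. Not all of these calls were stable. Over 16 settings, the main one included, Ndufv1, Ndufa10, Ndufs1 and Ndufa4 were called in all 16. Ndufa1 and Ndufs7 were called in 9, Ndufab1 in 8 and Ndufv2 in 7.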

How the results depend on the processing

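The counts of members lower in MI ranged from 34 to 42 at 1 day and from 39 to 42 at 3 days when each library was left out in turn, and from 35 to 42 and 40 to 42 under the other settings. The count with a more negative effect at 3 days, 19, ranged from 7 to 26 with a library left out, and the count with a more positive effect, 1, from 0 to 3. The count higher in MI at 3 days, 0, was 0 to 1 with a library left out and 1 (Ndufaf2, 0.67, adjusted p = 0.0155) by library size alone. The count higher in 3-day than in 1-day MI, 1, ranged from 1 to 2 with a library left out, and was 2 by library size alone and 2 without the 1-day B libraries of both groups. Counts over all tested genes moved with the setting too. Lower in MI at 1 day were 3058 of 15508 genes in the main fit, 2025 by library size alone and 3433 by DESeq2. At 3 days these were 3679, 3020 and 4023. A more negative effect was called in 1753 of 15508 genes in the main fit and 2434 of 14573 in the transcript-table reads. All-gene counts also moved with a library left out. The causes were not tested. Library size alone moved the median of all tested genes from 0.12 to 0.40 at 1 day and from 0.16 to 0.43 at 3 days, and the members' medians from -1.02 to -0.74 and from -1.69 to -1.42.

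Of 752 values of the fully described members under other settings, 0 changed direction past the threshold, 27 lost a call and 10 gained one. Calls of Ndufa4 at 1 day (lost 8 times), Ndufs7 for the difference (7) and Ndufaf4 at 1 day (5) changed most. No paired analysis was possible because the count columns carry no replicate numbers and both 1-day sham columns share a header name. With 2 mice a group and 7382490 counts in the smallest library, small changes of low members such as Ndufa4l2 may have been missed. The smallest change that could be detected was not tested.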

Other observations

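For 40 of the 45 members the count tables held more reads than the transcript tables, 133 to 213% with a median of 199%. The exceptions were Ndufs5 with 0 counts, Ndufb4 at 7.75%, Ndufab1 at 30.9%, Ndufs3 at 58.9% and Ndufa12 at 85.6%. The levels of these 5 members in the count tables are therefore uncertain. Ndufc1 at 133%, Ndufa1 and Ndufb11 at 140% and Ndufs6 at 146% also lay well below the median. Count ratios that hold Ndufc1, Ndufb11 or Ndufa12 share this limit.

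Counts of Ndufb10 per count of Ndufb11 were 1.75 to 2.18 in the sham libraries, 1.88 and 0.971 in MI at 1 day and 0.507 and 0.599 in MI at 3 days. Counts of Ndufaf3 per count of Ndufaf4 were 0.274 to 0.457 in sham, 0.170 and 0.154 in MI at 1 day, and 0.260 and 0.251 in MI at 3 days. At 1 day MI library B was lower than library A in 35 of 44 members, and the median size of the gap was 0.30 on the log2 scale, against 0.10 between the sham libraries of that day. Over all tested genes, with 0.5 CPM added to each level, the median gaps were 0.49 and 0.20.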
